A study of Homo sapiens with 9 samples.

Results

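Core and linker histone genes that lie in the HIST clusters of the human genome were followed in A673 cells, an established Ewing sarcoma line, after siRNA against LRWD1. Members were the rows of the deposited count table whose symbol starts with HIST1H, HIST2H, HIST3H or HIST4H and whose counts summed to at least 20 over the 9 libraries. This gave 25 genes out of 73 HIST rows in a table of 23368 gene symbols. By histone class, 3 of 6 H1 rows, 5 of 18 H2A rows, 10 of 20 H2B rows, 5 of 14 H3 rows and 2 of 15 H4 rows were members. By cluster, 21 members belong to HIST1 on chromosome 6, 3 to HIST2 on chromosome 1 and 1 to HIST3 on chromosome 1, while the HIST4 row on chromosome 12 stayed under the minimum. HIST1H2BO lay just inside it with 22 counts, and HIST1H3F and HIST1H3I lay just outside with 19 counts each.

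The 9 libraries form 3 groups of 3 that differ in the siRNA alone, namely siLRWD1-6, siLRWD1-5 and a scrambled siRNA. LRWD1 (ORCA) associates with the origin recognition complex, the protein assembly that sits on replication origins. In all 3 groups siRNA was delivered at 13 nM by reverse transfection with siLentFect, and RNA was taken 48 h later in 3 independent experiments. All groups were cultured with Zeocin, blasticidin S and serum approved for Tet systems, and the labels name no transgene. Each group is 1 cell line, so replicates are repeats of the experiment and not different tumours.

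Nucleosomes wrap DNA around a core of histones H2A, H2B, H3 and H4, and linker histone H1 binds where the DNA enters and leaves. The genes of the HIST clusters are mostly replication-dependent: their mRNAs accumulate in S phase, lack introns and end in a conserved stem-loop bound by the stem-loop binding protein SLBP in place of a poly(A) tail. Some of these genes also yield polyadenylated mRNA from a site further downstream, which has been described in differentiating or non-cycling cells. A second set of histone genes outside the clusters, such as those of H2A.Z, H3.3 and H1.0, is transcribed independently of replication and polyadenylated. The libraries were made with the Illumina TruSeq RNA v2 kit, in which RNA is captured through its poly(A) tail, so stem-loop mRNAs without a tail are expected to be captured poorly and the counts describe mainly the polyadenylated share. In bulk RNA, fewer cells in S phase and less histone mRNA per cell cannot be told apart.

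The stem-loop is shown for the 6 members that were both testable and annotated with it, since it marks the tail-less mRNA end that a poly(A) capture misses. Capitals mark the 16 bases of the stem-loop, read 5′ to 3′ on the mRNA strand and written with T, with 5 flanking bases on each side, from GENCODE release 29 transcripts of GRCh38.
HIST1H2BD: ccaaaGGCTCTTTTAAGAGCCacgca
HIST1H2BC: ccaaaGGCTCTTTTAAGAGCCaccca
HIST3H2A: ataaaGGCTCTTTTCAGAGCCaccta
HIST2H2BE: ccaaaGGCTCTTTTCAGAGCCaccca
HIST1H2AC: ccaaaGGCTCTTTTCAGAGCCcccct
HIST1H2BH: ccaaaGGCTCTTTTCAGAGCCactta
The stem-loops of HIST1H2BD and HIST1H2BC share the same 16 bases, and those of the other 4 genes share a second form. A stem-loop was found in an annotated transcript of 15 of the 25 members, 6 of them among the 10 tested genes and 9 among the untested. In 5 of these 6 tested genes a transcript runs at least 100 bases past the stem-loop, by 116 bases in HIST1H2BC, 390 in HIST3H2A, 1128 in HIST1H2AC, 1640 in HIST1H2BH and 1729 in HIST2H2BE. HIST1H2BD is annotated with a stem-loop transcript of 496 bases and with a second transcript of 789 bases, which holds no stem-loop. The polyadenylation signal AATAAA followed the coding end in a transcript of 14 members, 6 of them tested. For HIST1H2BK, HIST1H1C, HIST1H3E and HIST1H1E no stem-loop was found in the annotated transcripts, of which those of HIST1H2BK and HIST1H1C hold the coding sequence alone, with 381 and 642 bases.

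Near-identical copies can limit how reads are assigned to these genes. The measure used was the share of 50-base words of the longest annotated transcript that also occur in transcripts of other genes. HIST1H2BK, which encodes a widely expressed H2B, shared 74.1% of its words, and no gene shared more of them than H2BFS. The other 9 tested genes each shared under 15%, and 12 of the 25 members shared none. Within the coding sequence alone, the untested HIST2H2BF shared 75.3% of its words, against 74.1% for HIST1H2BK and 52.4% for HIST2H2BE. No gene shared more of the HIST2H2BE words than HIST2H2BF. HIST1H2BD shared 13.3% and HIST1H2BC 15.7%, and no gene shared more with either than the other did. Reads within those stretches cannot be assigned to a gene with certainty, and how the counting treated them is not stated in the labels. Of the 14 HIST rows with no count in any library, 7 shared at least 50% of their words and 7 shared none. The first set holds the duplicated HIST2 genes HIST2H2AA3, HIST2H2AA4, HIST2H3A, HIST2H3C, HIST2H4A and HIST2H4B, each with 97.1% to 100% shared words. The second set includes HIST1H2AA and HIST1H2BA, which encode testis-specific histones. Of the 34 HIST rows with 1 to 19 counts, 5 shared at least 50% of their words, as did 1 of the 25 members. Whether shared sequence lowered any count was not tested.

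**Figure D1:**
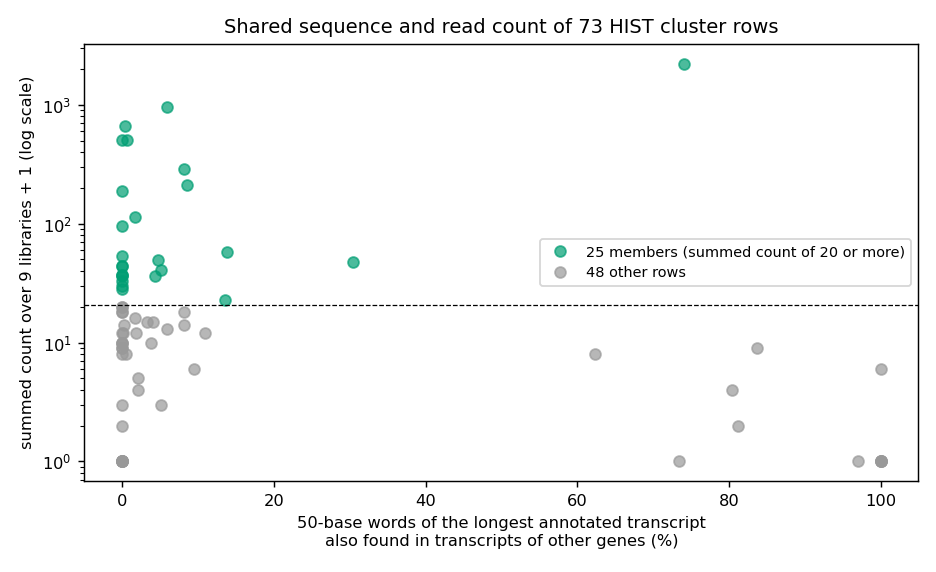
Share of 50-base words of the longest annotated transcript that also occur in transcripts of other genes (horizontal, %) against the count summed over 9 libraries plus 1 (vertical, log scale) for 73 HIST rows. The 25 members (green) lie above the dashed line at the minimum. HIST1H2BK, at 74.1% of a transcript annotated as coding sequence alone, is the member furthest to the right.

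The libraries held 11971179 to 15674452 counts each. LRWD1 averaged 7.74 ± 1.05 CPM (library-scaled counts, with library sizes adjusted by the trimmed mean of M-values, TMM) with siLRWD1-6, 10.8 ± 0.497 with siLRWD1-5 and 51.0 ± 3.13 in scrambled libraries (SD, n = 3 each). Of 8 Ewing sarcoma markers, 7 were detected at 19.5 CPM or more in every library, and CD99 was at 0 to 3.70 CPM. CD99 lies in a stretch shared by chromosomes X and Y, and the labels do not say how reads matching both copies were counted, so this value is not read as its level. Of 18 markers of other cell types, 14 stayed under 1 CPM in every library, CD3E and HBB had no count, and 0 of the 3 tested were called in any comparison by edgeR's quasi-likelihood test (1, 0 and 1 at an unadjusted p under 0.05 in siLRWD1-5 against scrambled, siLRWD1-6 against scrambled and siLRWD1-6 against siLRWD1-5). Leaving out scrambled replicate 2, the library described next, 6 of these markers were tested and COL3A1 was called higher with siLRWD1-5 than with scrambled siRNA (0.41 on the log2 scale, SE 0.11, edgeR adjusted p = 0.0096). In that fit COL3A1 was called lower with siLRWD1-6 than with siLRWD1-5 (-0.70, edgeR adjusted p = 0.00015). So was the epithelial marker EPCAM, which was not tested with all libraries. EPCAM averaged 0.224 ± 0.0627 CPM with siLRWD1-6, 0.777 ± 0.212 with siLRWD1-5 and 0.252 ± 0.181 in scrambled libraries (SD, n = 3 each). It was that low and highest with siLRWD1-5, so its call is not read as support for a difference. The summed level of all 18 markers was 1423 to 1825 CPM with siLRWD1-6, 2459 to 2803 CPM with siLRWD1-5 and 877 to 2144 CPM in scrambled libraries, nearly all of it from COL3A1, a collagen gene at 874 to 2799 CPM, whose part in the histone results was not tested.

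Scrambled replicate 2 stood apart from the other scrambled libraries, and some histone genes differed there too. Its counts differed from theirs by a chi-square per gene of 29.6 and 25.1, against 3.05 to 5.69 for the other replicate pairs within a group. Relative to the mean of the other 2 scrambled libraries it was higher on the log2 scale by 1.51 for HIST1H2AC, 1.28 for HIST1H2BD and 0.51 for HIST1H2BK, the 3 tested members furthest above 0. The 10 tested members had a median of 0.07 there, with 3 lower, against 0.01 over all genes tested, and HIST1H1C lay at -0.52 and HIST1H2BH at -0.28. In the same library 20 of 20 S phase markers were lower (median -0.64 on the log2 scale), as were 15 of 15 G2 and mitosis markers (median -0.79). The replication-independent histone genes had a median of -0.43, with 9 of 11 lower, and the summed H1 members lay at -0.49. The summed H2A and H2B members were higher there by 0.84 and 0.62, in the library in which proliferation markers were low. Whether these differences bear on each other was not tested, and the list counts against scrambled siRNA are given with and without this library. Leaving it out raised the share of all tested genes called to 28.5% with siLRWD1-6 against scrambled, to 49.0% with siLRWD1-5 against scrambled and to 54.4% between the siRNAs, so list counts without it are read against these shares.

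**Figure D2:**
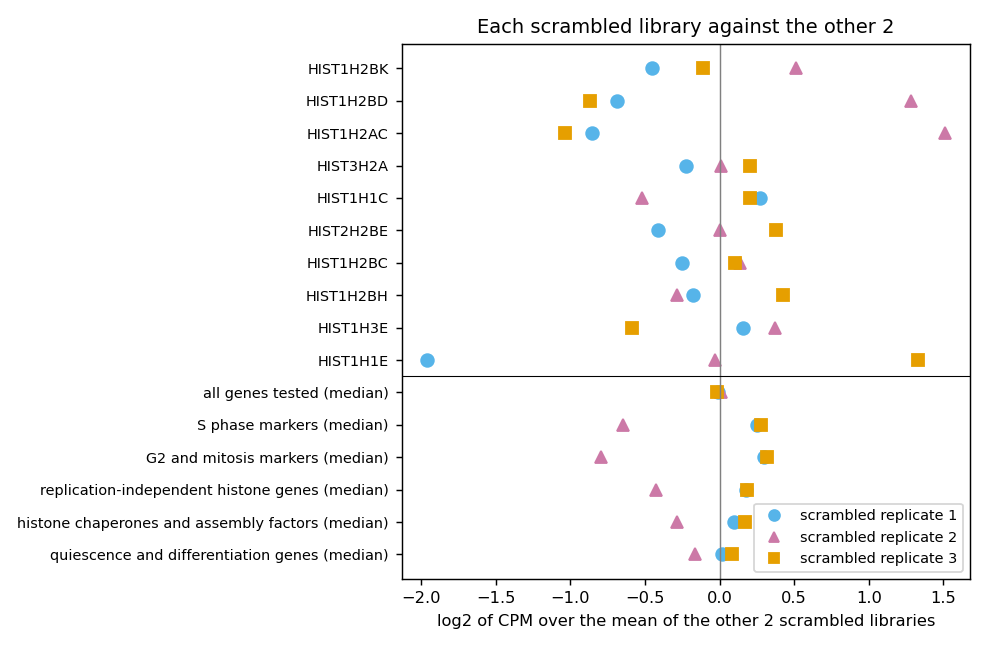
Log2 ratio of CPM in each scrambled library to the mean of the other 2 scrambled libraries (horizontal) for the 10 tested histone genes and for the median of 5 gene lists and of all tested genes (vertical). Replicate 2 (triangles) lies at 1.51 for HIST1H2AC and 1.28 for HIST1H2BD but at -0.64 and -0.79 for the S phase and mitosis lists.

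The members together held few counts. They had 559 to 802 counts per library, which is 0.00409% to 0.00625% of the library. H2B genes held 64.2% of the 6298 member counts, H2A genes 20.4%, H1 genes 9.86%, H3 genes 4.18% and H4 genes 1.40%. HIST1H2BK alone held 35.0% of them, HIST1H2BK and HIST1H2BD together 50.1%, and the 10 tested genes 90.8%.

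Summed over its 10 members, H2B had 35.7, 37.8 and 40.3 CPM with siLRWD1-6, 26.1, 31.6 and 26.0 CPM with siLRWD1-5, and 27.0, 44.5 and 30.8 CPM in scrambled libraries 1, 2 and 3. Each siLRWD1-6 library lay above each siLRWD1-5 library, while scrambled replicate 2 lay above all others. Without HIST1H2BD the H2B sum was 24.5, 25.3 and 27.9 CPM with siLRWD1-6, 24.95, 28.96 and 23.5 CPM with siLRWD1-5 and 20.2, 28.5 and 24.5 CPM in scrambled libraries. The 3 groups then overlapped, so the separation of the H2B sums between the siRNAs was carried by HIST1H2BD. The summed H2A members averaged 10.9 ± 0.141 CPM with siLRWD1-6, 10.6 ± 1.44 with siLRWD1-5 and 10.3 ± 3.70 in scrambled libraries (SD, n = 3 each). Without scrambled replicate 2 the scrambled mean was 8.12 CPM for H2A and 28.9 CPM for H2B. The summed H1 members averaged 5.40 ± 1.71 CPM with siLRWD1-6, 5.94 ± 1.08 with siLRWD1-5 and 3.91 ± 0.897 in scrambled libraries. The class sums were not tested.

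H3 and H4 were close to the limit of detection. The summed H3 members averaged 2.40 ± 0.709 CPM with siLRWD1-6, 2.00 ± 0.573 with siLRWD1-5 and 2.14 ± 0.752 in scrambled libraries (SD, n = 3 each), and the groups overlapped. The H4 members, HIST1H4H and HIST1H4E, together had 4, 9 and 10 counts with siLRWD1-6, 4, 19 and 7 counts with siLRWD1-5 and 3, 14 and 18 counts in scrambled libraries 1, 2 and 3. In each group the library numbered 1 had the fewest H4 counts, and it was the deepest library of that group. A count of 0 in a library allows a level of up to 0.189 to 0.254 CPM (3 counts of its scaled total), and such floors cover counting error alone.

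**Figure D3:**
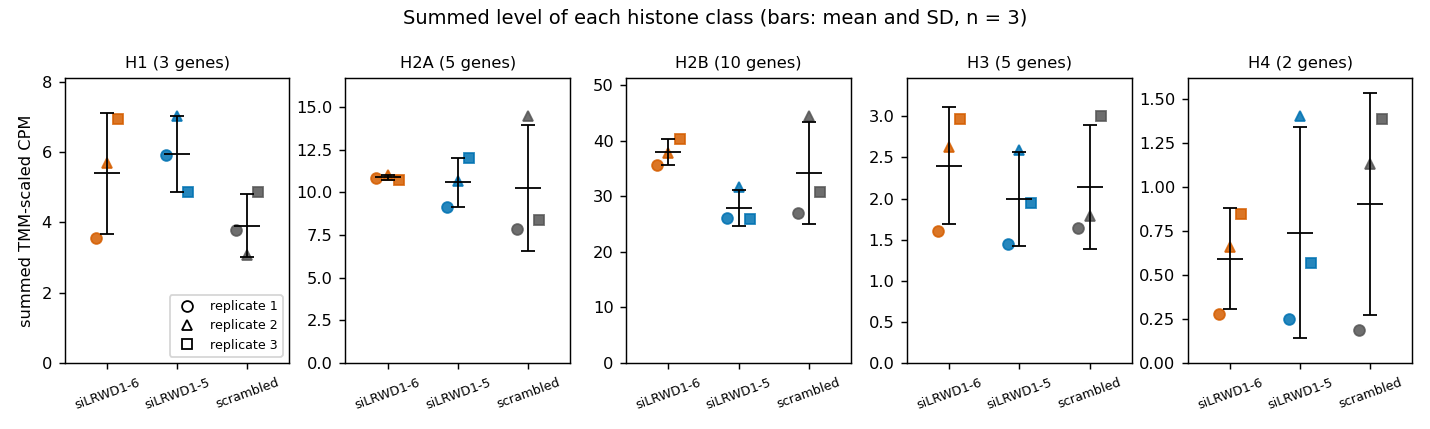
Summed TMM-scaled CPM of the members of each histone class (vertical axis, from 0) in each library of the 3 siRNA groups, with the group mean and SD (n = 3). H2B sums with siLRWD1-6 (35.7 to 40.3 CPM) lie above those with siLRWD1-5 (26.0 to 31.6 CPM), and the triangle of scrambled replicate 2 is the highest point for H2A and H2B.

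Of the 25 members, 10 passed edgeR's filter on low counts and entered the fit over 13648 genes: 2 of H1, 2 of H2A, 5 of H2B, 1 of H3 and 0 of H4. The comparisons of each siRNA with scrambled share the 3 scrambled libraries, and each siRNA group also enters the comparison between the siRNAs. Fold changes (log2, with standard error, SE) and adjusted p-values below come from edgeR's quasi-likelihood test, with p-values adjusted over all tested genes by the Benjamini-Hochberg procedure.

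With siLRWD1-5, HIST1H2BD and HIST1H2BC fell and HIST3H2A and HIST1H1C rose against scrambled siRNA, while the other 6 tested members did not pass the test. Over all genes tested in this comparison 18.5% were called higher and 20.3% lower, 38.8% in either direction, so 4 called of 10 tested members is near the background. HIST1H2BD encodes an H2B whose protein differs little from that of other H2B genes. It had 11.1, 12.6 and 12.4 CPM with siLRWD1-6, 1.13, 2.67 and 2.44 CPM with siLRWD1-5, and 6.89, 15.97 and 6.25 CPM in scrambled libraries 1, 2 and 3. Every siLRWD1-5 library lay below every other library, and scrambled replicate 2 was the highest of the 9. HIST1H2BD was 4.70-fold lower with siLRWD1-5 than with scrambled siRNA (log2 fold change -2.23, SE 0.42, adjusted p = 0.0028). The call held without scrambled replicate 2, as it did in 18 of 18 alternatives, with log2 fold changes of -2.47 to -1.70 and adjusted p of 3e-08 to 0.012.

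HIST1H2BC, a neighbouring H2B gene, had 1.67, 1.90 and 2.37 CPM with siLRWD1-6, 0.756, 1.19 and 1.30 CPM with siLRWD1-5 and 1.96, 2.35 and 2.31 CPM in scrambled libraries. Here too the siLRWD1-5 libraries were the lowest 3 of 9, at 12 to 16 counts each. The gene was 2.06-fold lower with siLRWD1-5 (log2 fold change -1.04, SE 0.26, edgeR adjusted p = 0.009), and the call held in 18 of 18 alternatives. Its divergent partner HIST1H2AC, an H2A gene whose start lies 246 bases away on the opposite strand, had 6.06, 5.55 and 4.91 CPM with siLRWD1-6, 4.03, 5.11 and 5.52 CPM with siLRWD1-5 and 3.92, 10.6 and 3.55 CPM in scrambled libraries. Scrambled replicate 2 set the scrambled mean of HIST1H2AC. Its log2 fold change with siLRWD1-5 was -0.29 (95% interval -1.03 to 0.45), and without that library it was 0.37 (edgeR adjusted p = 0.13), with the opposite sign.

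HIST3H2A encodes an H2A from the small cluster on chromosome 1. It had 4.11, 4.09 and 4.23 CPM with siLRWD1-6, 4.60, 4.44 and 5.85 CPM with siLRWD1-5 and 2.97, 3.32 and 3.63 CPM in scrambled libraries, and no 2 groups overlapped. With siLRWD1-5 it rose by 0.58 on the log2 scale (SE 0.17, edgeR adjusted p = 0.018). The call was lost without scrambled replicate 1 (0.51, adjusted p = 0.065) and without siLRWD1-5 replicate 3 (0.46, adjusted p = 0.071). HIST1H1C, which encodes the linker histone H1.2, had 2.93, 4.16 and 5.16 CPM with siLRWD1-6, 5.29, 5.70 and 4.30 CPM with siLRWD1-5 and 3.41, 2.35 and 3.32 CPM in scrambled libraries. Its siLRWD1-5 libraries were all above the scrambled ones, and the siLRWD1-6 libraries spanned both. HIST1H1C rose by 0.75 with siLRWD1-5 (SE 0.23, adjusted p = 0.025). This call was lost without siLRWD1-5 replicate 1 (0.72, adjusted p = 0.073), without siLRWD1-5 replicate 2 (0.67, adjusted p = 0.08) and with libraries 1 and 3 alone (0.53, adjusted p = 0.071), a fit that called 47.0% of all genes with siLRWD1-5 against scrambled.

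HIST2H2BE, an H2B gene of the HIST2 cluster, had 2.79, 2.48 and 2.79 CPM with siLRWD1-6, 3.40, 2.59 and 1.95 CPM with siLRWD1-5 and 1.39, 1.70 and 2.01 CPM in scrambled libraries. The siLRWD1-6 libraries all lay above the scrambled ones, whereas siLRWD1-5 replicate 3 overlapped them. Its log2 fold change with siLRWD1-5 was 0.66 (SE 0.25, edgeR adjusted p = 0.054), and it passed without siLRWD1-5 replicate 3 (0.83, adjusted p = 0.027) and with no scaling beyond library size (0.72, adjusted p = 0.04). HIST1H2BK, the most counted member, had 16.9, 18.6 and 19.9 CPM with siLRWD1-6, 18.1, 20.3 and 17.2 CPM with siLRWD1-5 and 13.9, 21.6 and 16.4 CPM in scrambled libraries. The groups overlapped and its log2 fold change with siLRWD1-5 was 0.10 (95% interval -0.19 to 0.39). Without scrambled replicate 2 it was 0.29 and passed (adjusted p = 0.041).

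**Figure D4:**
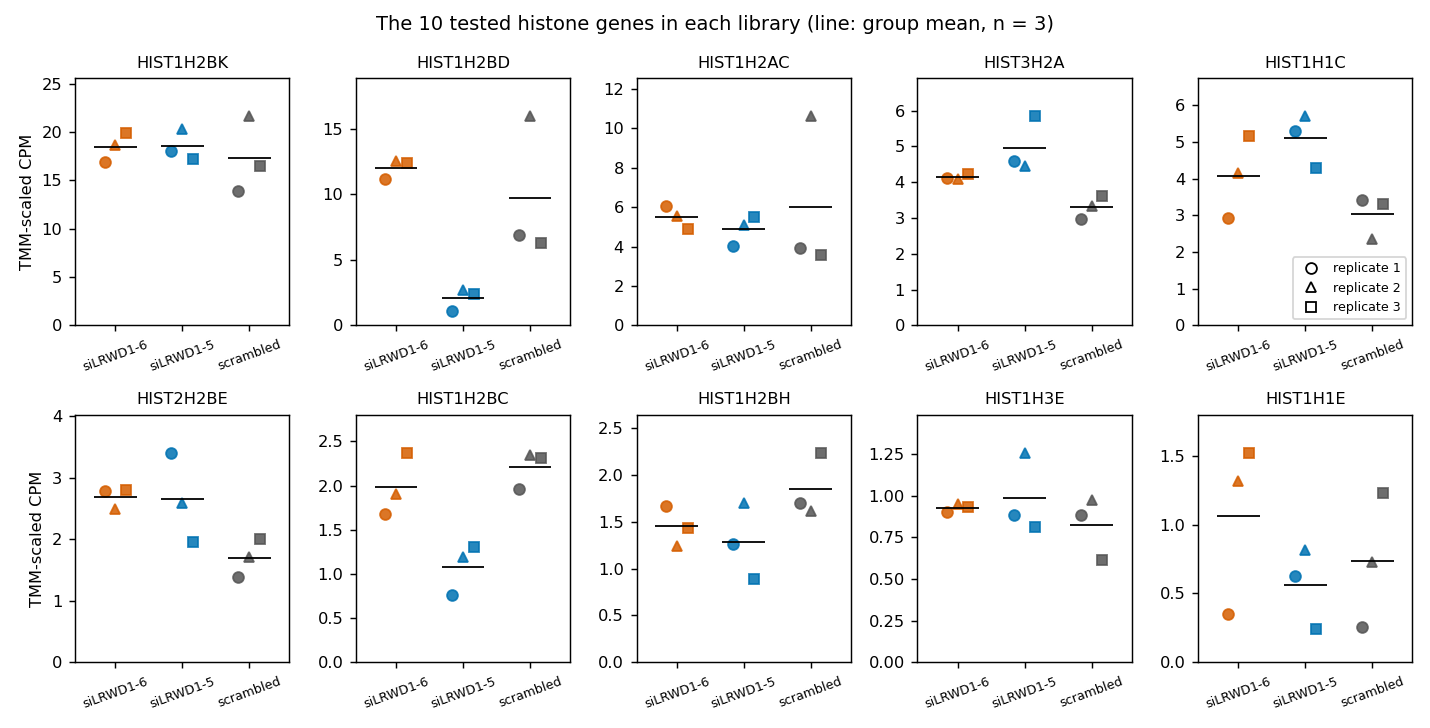
TMM-scaled CPM (vertical, from 0, a separate scale for each gene) of the 10 tested histone genes in each library of the 3 siRNA groups, with the group mean as a line. The siLRWD1-5 libraries are the lowest for HIST1H2BD (1.13 to 2.67 CPM) and HIST1H2BC (0.756 to 1.30 CPM), and scrambled replicate 2 is the highest for HIST1H2BD, HIST1H2AC and HIST1H2BK.

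With siLRWD1-6, 0 of the 10 tested members passed the test against scrambled siRNA by edgeR's quasi-likelihood test, 0 by DESeq2 and 0 by limma-voom, and 1, HIST2H2BE, had an unadjusted p under 0.05 by edgeR. Over all genes tested 8.81% were called higher and 7.78% lower in this comparison, 16.6% in either direction. HIST2H2BE had a log2 fold change of 0.67 (SE 0.25, unadjusted p = 0.021, adjusted p = 0.093). HIST1H2BD had a log2 fold change of 0.32 (95% interval -0.36 to 1.00), HIST1H2BC of -0.16 (-0.63 to 0.32), HIST3H2A of 0.33 (-0.01 to 0.67) and HIST1H1C of 0.41 (-0.06 to 0.88).

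The calls of 2 members in this comparison depended on scrambled replicate 2. Without it 28.5% of all genes tested were called, against 2 of the 12 members then tested, a share below that background. HIST1H2BD was then higher with siLRWD1-6 by 0.88 on the log2 scale (edgeR adjusted p = 0.00093) and HIST1H2AC by 0.57 (adjusted p = 0.031), where HIST1H2AC had lain at -0.11 with all libraries. With libraries 1 and 3 of each group alone, HIST1H2BD was higher by 0.84 (adjusted p = 0.00081) and HIST1H2AC did not pass (0.57, adjusted p = 0.055), with 26.0% of all genes called. The absence of calls with siLRWD1-6 therefore rested on keeping that library.

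Between the siRNAs, HIST1H2BD and HIST1H2BC were higher with siLRWD1-6 than with siLRWD1-5, and 0 members were lower. The test of the difference over all genes called 22.4% higher and 20.9% lower, 43.4% in either direction, that is 3063 higher and 2856 lower, and with no scaling beyond library size it called 2478 higher and 3609 lower. HIST1H2BD was 5.88-fold higher with siLRWD1-6 (log2 fold change 2.55, SE 0.42, edgeR adjusted p = 0.001), which held in 18 of 18 alternatives at 2.23 to 2.80. HIST1H2BC was 1.84-fold higher (0.88, SE 0.27, adjusted p = 0.02), a call lost without siLRWD1-5 replicate 1 (0.66, adjusted p = 0.087) and without siLRWD1-6 replicate 3 (0.76, adjusted p = 0.071). The 2 genes that rose with siLRWD1-5 against scrambled did not pass here, HIST3H2A at -0.26 (95% interval -0.58 to 0.07) and HIST1H1C at -0.33 (-0.78 to 0.11). The response of HIST1H2BD thus differed between siRNAs that both lowered LRWD1, and LRWD1 was lower with siLRWD1-6 than with siLRWD1-5 (log2 fold change -0.48, SE 0.12, edgeR adjusted p = 0.0058).

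**Figure D5:**
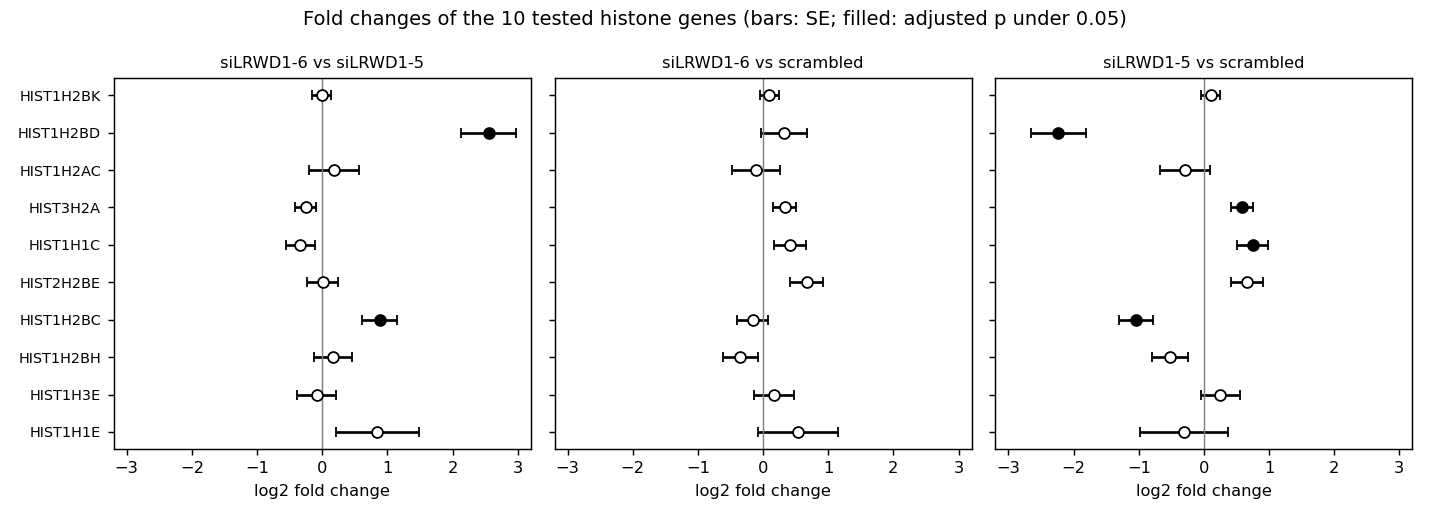
Log2 fold change (horizontal, bars show SE) of the 10 tested histone genes (vertical) in the 3 comparisons, with filled points for an adjusted p under 0.05. HIST1H2BD and HIST1H2BC are filled in both comparisons that involve siLRWD1-5 and open with siLRWD1-6 against scrambled.

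The remaining 3 tested members were low and did not pass in any comparison. HIST1H2BH, an H2B gene, had 1.67, 1.24 and 1.44 CPM with siLRWD1-6, 1.26, 1.70 and 0.893 CPM with siLRWD1-5 and 1.71, 1.62 and 2.24 CPM in scrambled libraries. HIST1H3E, the H3 gene that was tested, had 0.906, 0.950 and 0.931 CPM with siLRWD1-6, 0.882, 1.26 and 0.812 CPM with siLRWD1-5 and 0.884, 0.972 and 0.617 CPM in scrambled libraries. The groups of both genes overlapped. HIST1H1E, which encodes the linker histone H1.4, had 0.348, 1.32 and 1.52 CPM with siLRWD1-6, 0.630, 0.815 and 0.244 CPM with siLRWD1-5 and 0.253, 0.729 and 1.23 CPM in scrambled libraries. It varied more within a group than between groups, with 95% intervals as wide as -1.64 to 1.01 for siLRWD1-5 against scrambled.

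The 15 untested members had 0 to 15 counts in a library and 22 to 57 counts in all. In 9 of their 135 values the count was 0. HIST2H2BF, an H2B gene, summed to 13 counts with siLRWD1-6, 31 with siLRWD1-5 and 13 in scrambled libraries. HIST2H2AC, whose start faces that of HIST2H2BE, summed to 15 counts with siLRWD1-6, 11 with siLRWD1-5 and 21 in scrambled libraries. The linker histone gene HIST1H1B, which encodes H1.5, summed to 10 counts with siLRWD1-6, 11 with siLRWD1-5 and 6 in scrambled libraries. The H3 genes HIST1H3D and HIST1H3H summed to 11 and 13 counts with siLRWD1-6, 11 and 18 with siLRWD1-5 and 21 and 12 in scrambled libraries. HIST1H2BG, an H2B gene picked after its values were seen, had 1 count in each siLRWD1-6 library, 3, 12 and 7 counts in siLRWD1-5 libraries and 1, 0 and 6 counts in scrambled libraries. With no count filter, which brought all 25 members into the fit, edgeR called it lower with siLRWD1-6 than with siLRWD1-5. Of all genes 30.8% were called there. Its counts summed to 3 with siLRWD1-6 and 22 with siLRWD1-5, a scaled ratio of 0.144 (95% exact counting interval 0.0275 to 0.478). In the fit with no count filter 2 members were higher and 2 lower with siLRWD1-5 against scrambled, where 27.1% of all genes were called. By edgeR 0 members were called with siLRWD1-6 against scrambled (2 at an unadjusted p under 0.05), where 11.5% of all genes were.

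Levels were compared between genes per kilobase of the longest annotated transcript. HIST1H2BK led with 48.5 ± 3.90 CPM per kb with siLRWD1-6, 48.6 ± 4.17 with siLRWD1-5 and 45.5 ± 10.4 in scrambled libraries (SD, n = 3 each), on its coding sequence alone. HIST1H2BD followed with 15.2 ± 0.971 CPM per kb with siLRWD1-6, 2.63 ± 1.05 with siLRWD1-5 and 12.3 ± 6.89 in scrambled libraries. HIST1H1C had 6.36 ± 1.75 CPM per kb with siLRWD1-6, 7.94 ± 1.12 with siLRWD1-5 and 4.71 ± 0.915 in scrambled libraries, so it stood above HIST1H2BD with siLRWD1-5, as did the means of HIST3H2A (5.55) and HIST1H2AC (2.93). HIST3H2A, HIST1H2AC and HIST1H2BC came next at 3.69 ± 0.368, 3.61 ± 2.39 and 3.35 ± 0.329 CPM per kb in scrambled libraries and did not differ beyond their spread. The other 19 members stayed at 1.28 CPM per kb or less in scrambled libraries. The order of the scrambled means below HIST1H2BD changes with how much untranslated sequence is annotated: per kilobase of coding sequence, HIST1H2AC had rank 3 and HIST1H1C rank 7 of the 25. For HIST1H2BK both lengths are the same 381 bases, so its lead was not checked on a transcript with untranslated sequence.

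Promoter windows are shown for the 4 members called with siLRWD1-5, since members that fell and members that rose can then be read side by side. Each spans 250 bases before to 50 bases after the annotated start in RefSeq on GRCh38.p14, 5′ to 3′ on the gene's strand, and the RefSeq table held a window for all 25 members. Capitals mark, on either strand, the octamer ATTTGCAT, the CCAAT box CCAAT, the TATA box TATAAA and the H1 box AAACACA. HIST1H2BD lies at chr6:26157872-26158171 on the plus strand, HIST1H2BC at chr6:26123877-26124176 on the minus strand, HIST3H2A at chr1:228457824-228458123 on the minus strand and HIST1H1C at chr6:26056421-26056720 on the minus strand.
HIST1H2BD: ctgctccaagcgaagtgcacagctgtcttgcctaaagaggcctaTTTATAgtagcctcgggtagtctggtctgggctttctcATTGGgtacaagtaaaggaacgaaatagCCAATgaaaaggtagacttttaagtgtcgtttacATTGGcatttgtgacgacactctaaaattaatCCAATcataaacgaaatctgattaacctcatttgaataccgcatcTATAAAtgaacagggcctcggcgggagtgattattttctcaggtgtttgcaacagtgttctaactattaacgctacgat
HIST1H2BC: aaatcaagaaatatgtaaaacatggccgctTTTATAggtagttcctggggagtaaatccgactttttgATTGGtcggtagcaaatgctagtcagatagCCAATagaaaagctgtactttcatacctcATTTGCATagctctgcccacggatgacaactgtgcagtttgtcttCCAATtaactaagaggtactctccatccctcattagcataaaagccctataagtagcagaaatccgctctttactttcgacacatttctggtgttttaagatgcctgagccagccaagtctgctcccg
HIST3H2A: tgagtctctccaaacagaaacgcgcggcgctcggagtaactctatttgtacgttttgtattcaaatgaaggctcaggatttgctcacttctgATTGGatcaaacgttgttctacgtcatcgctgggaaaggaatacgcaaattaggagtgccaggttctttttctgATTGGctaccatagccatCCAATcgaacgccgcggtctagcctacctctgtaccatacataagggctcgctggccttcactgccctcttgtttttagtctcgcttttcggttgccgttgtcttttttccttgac
HIST1H1C: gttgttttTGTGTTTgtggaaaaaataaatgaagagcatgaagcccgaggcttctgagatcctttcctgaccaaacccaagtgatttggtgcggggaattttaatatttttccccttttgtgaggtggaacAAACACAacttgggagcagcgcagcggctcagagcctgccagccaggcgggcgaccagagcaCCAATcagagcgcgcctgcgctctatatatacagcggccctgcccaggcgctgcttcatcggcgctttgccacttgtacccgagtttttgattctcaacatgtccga
The HIST1H2BD window holds 4 CCAAT boxes, 2 TATAAA matches and no octamer. That of HIST1H2BC holds 1 octamer, 3 CCAAT boxes and 1 TATAAA. This TATAAA reads on the opposite strand, near the end of the window away from the HIST1H2BC start, and is the TATAAA site of the overlapping HIST1H2AC window. HIST3H2A has 3 CCAAT boxes and neither of the other core motifs, and HIST1H1C has 1 CCAAT box and 2 H1 boxes. Among the members, the octamer was found in 12 of 25 windows (48.0%), 8 of them H2B and 4 H2A, against 1.77% of 35116 human promoter windows of the same length. The 4 H2A windows each overlap the window of an H2B member on the opposite strand, and hold the same octamer site read on the other strand. These windows are therefore not independent, and CCAAT and TATAAA matches are shared in overlapping windows in the same way. The CCAAT box was found in 92.0% of member windows against 34.6% of all windows, TATAAA in 60.0% against 11.5%, and the H1 box in 4 of 25 member windows against 5.64% of all windows. All 3 H1 members had an H1 box. These matches describe letters in the window and not bound factors.

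In 4 pairs of members an H2A and an H2B gene start head to head, so that their windows overlap: HIST1H2BC with HIST1H2AC by 255 bases, HIST2H2BE with HIST2H2AC by 265, HIST1H2BJ with HIST1H2AG by 253 and HIST1H2BG with HIST1H2AE by 268. Of these pairs HIST1H2BC and HIST1H2AC were both tested. In siLRWD1-5 against scrambled the log2 fold change was -1.04 (SE 0.26) for HIST1H2BC and -0.29 (SE 0.38) for HIST1H2AC, and whether these differ was not tested.

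Genes that act around the clusters were read from the same fit. NPAT, the coactivator of histone gene transcription in S phase, had a log2 fold change of 0.03 (SE 0.11) with siLRWD1-6 and -0.22 (SE 0.11, edgeR adjusted p = 0.12) with siLRWD1-5 against scrambled. Of 10 transcription factors and cyclins of the histone genes, 0 rose and 1 fell with siLRWD1-6, namely CCNE2 (cyclin E2, log2 fold change -1.05, SE 0.23, adjusted p = 0.011). With siLRWD1-5, HINFP, which binds H4 promoters, rose by 0.39 (SE 0.10, adjusted p = 0.012), and YY1 fell (log2 fold change -0.44, SE 0.06, adjusted p = 0.00026). These were the only calls of the 10 genes with siLRWD1-5, where 38.8% of all genes were called, against 16.6% with siLRWD1-6. The list had 1 higher and 4 lower with siLRWD1-6 once scrambled replicate 2 was left out, and 1 higher and 7 lower with siLRWD1-5. That fit called 28.5% of all genes with siLRWD1-6 and 49.0% with siLRWD1-5.

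Genes of histone mRNA 3′ end processing and decay numbered 24, and 1 was called with siLRWD1-6 against scrambled, where 16.6% of all genes were called, and 13 with siLRWD1-5, where 38.8% were. SLBP, the stem-loop binding protein, had a log2 fold change of -0.08 (SE 0.07) with siLRWD1-6 and -0.15 (SE 0.07, edgeR adjusted p = 0.096) with siLRWD1-5. Of the 24 genes of the list, 0 rose and 1 fell with siLRWD1-6, NCBP2 of the cap-binding complex (log2 fold change -0.28, SE 0.06, adjusted p = 0.0057). With siLRWD1-5, 3 rose and 10 fell, with a list median of -0.14 against -0.01 over all genes tested. LSM10 and LSM11 encode Sm-like proteins of the U7 small nuclear ribonucleoprotein, which takes part in the cleavage of histone pre-mRNA. Both fell (log2 fold changes -0.70, SE 0.16, adjusted p = 0.005, and -0.67, SE 0.17, adjusted p = 0.0099). So did NCBP1, the scaffold protein SYMPK and the cleavage factors CSTF1 and CPSF3, with log2 fold changes of -0.50, -0.32, -0.31 and -0.47 in that order. Between the siRNAs 8 of the 24 were higher and 1 lower with siLRWD1-6, where 43.4% of all genes were called, and without scrambled replicate 2 these were 11 and 1. Leaving out scrambled replicate 2 gave 0 higher and 2 lower with siLRWD1-6 and 3 higher and 11 lower with siLRWD1-5. That fit called 28.5% of all genes with siLRWD1-6, 49.0% with siLRWD1-5 and 54.4% between the siRNAs.

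Histone chaperones and assembly factors showed 0 higher and 2 lower of 23 with siLRWD1-6, namely NAP1L4 and CHAF1B, a subunit of the chromatin assembly factor CAF-1 (log2 fold change -0.41, SE 0.12, edgeR adjusted p = 0.037). With siLRWD1-5, 1 rose and 8 fell. Over all genes 16.6% were called with siLRWD1-6 and 38.8% with siLRWD1-5. The H3.3 chaperone HIRA fell (log2 fold change -0.63, SE 0.06, adjusted p = 1.1e-05), as did SUPT16H, a subunit of the chaperone FACT (-0.76, SE 0.07, adjusted p = 1.2e-05), and ASF1A (-0.81, SE 0.11, adjusted p = 0.00013), while the other H3.3 chaperone DAXX rose by 0.39 (SE 0.07, adjusted p = 0.0012). When scrambled replicate 2 was left out, the counts were 1 higher and 10 lower with siLRWD1-6 and 2 higher and 13 lower with siLRWD1-5, in a fit that called 28.5% of all genes with siLRWD1-6 and 49.0% with siLRWD1-5.

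Among the histone genes outside the clusters, H1F0, which encodes the linker histone H1.0, abundant in non-cycling cells, was the gene with the smallest p with siLRWD1-5. It averaged 41.4 ± 3.33 CPM with siLRWD1-6, 90.5 ± 2.02 CPM with siLRWD1-5 and 44.2 ± 6.90 CPM in scrambled libraries (SD, n = 3 each). It rose by 1.03 with siLRWD1-5 (SE 0.10, edgeR adjusted p = 2e-05). H1FX, a linker histone gene as well, rose by 0.42 (SE 0.12, adjusted p = 0.018), while of the tested H1 genes in the clusters HIST1H1C was called higher, a call lost in 3 of 18 alternatives, and HIST1H1E lay at -0.31 (SE 0.68) and did not pass. H2AFZ (H2A.Z) and H3F3B (H3.3) had log2 fold changes of 0.01 (SE 0.11) and 0.05 (SE 0.07) there. With siLRWD1-6, 0 of 11 rose and 1 fell, H2AFY (macroH2A1, log2 fold change -0.20, SE 0.06, adjusted p = 0.032). The list had 2 higher and 0 lower with siLRWD1-5. Over all genes 16.6% were called with siLRWD1-6 and 38.8% with siLRWD1-5. Fitted without scrambled replicate 2, the list had 0 higher and 5 lower with siLRWD1-6 and 3 higher and 2 lower with siLRWD1-5, where 28.5% and 49.0% of all genes were called.

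The calls of S phase markers, whose activity normally parallels that of the replication-dependent histone genes, and of G2 and mitosis markers depended on the same library. Of 20 S phase markers, 0 rose and 1 fell with siLRWD1-6, RRM2 (ribonucleotide reductase, log2 fold change -0.62, SE 0.17, edgeR adjusted p = 0.034). With siLRWD1-5, 0 rose and 6 fell, led by the replication licensing factor CDC6 (log2 fold change -0.99, SE 0.16, adjusted p = 0.00086) and the sliding clamp PCNA (-0.47, SE 0.11, adjusted p = 0.0062). Without scrambled replicate 2, 0 rose and 17 of 20 fell with siLRWD1-6 (list median -0.27), and 0 rose and 16 of 20 fell with siLRWD1-5 (list median -0.35). Over all genes tested in that fit 28.5% were called with siLRWD1-6 and 49.0% with siLRWD1-5, against 16.6% and 38.8% with all libraries. Of 15 G2 and mitosis markers, 0 rose and 0 fell with siLRWD1-6 (also 0 at an unadjusted p under 0.05, by edgeR, the test run on the lists), and 0 rose and 4 fell with siLRWD1-5, led by CDC20, which triggers the anaphase-promoting complex (log2 fold change -2.04, SE 0.17, adjusted p = 1.7e-05). Without that library, 9 of 15 fell with either siRNA. Without it most S phase markers were called lower with either siRNA, while HIST1H2BD was called lower with siLRWD1-5 and higher with siLRWD1-6. That library was low in the markers and high in HIST1H2BD. Its removal alone therefore moves the markers down and HIST1H2BD up against scrambled siRNA. The counts without it are not read as separate support for a response to the siRNAs. Whether the marker levels bear on the histone genes was not tested.

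Genes of quiescence and differentiation, in which polyadenylated histone mRNA has been described, gave 4 higher and 0 lower of 11 with siLRWD1-6: FOXO3, BTG1, BTG2 and CCNG2, with log2 fold changes of 0.51 (SE 0.09), 0.54 (SE 0.12), 0.56 (SE 0.12) and 0.40 (SE 0.11) and adjusted p of 0.003, 0.0091, 0.01 and 0.026 by edgeR's quasi-likelihood test. With siLRWD1-5, BTG2 and FOXO3 rose, by 0.92 (SE 0.12) and 0.32 (SE 0.09), and GAS1 and TOB1 fell, with log2 fold changes of -0.94 (SE 0.23) and -0.39 (SE 0.08). Over all genes 16.6% were called with siLRWD1-6 and 38.8% with siLRWD1-5. Without scrambled replicate 2 the list had 4 higher and 1 lower with siLRWD1-6 and 4 higher and 4 lower with siLRWD1-5. That fit called 28.5% of all genes with siLRWD1-6 and 49.0% with siLRWD1-5. Of the 7 Ewing sarcoma markers tested, 0 rose and 1 fell with siLRWD1-6, where 7.78% of all genes were called lower. With siLRWD1-5, where 20.3% were called lower, 0 rose and 6 fell. Among these was FLI1, part of the EWS-FLI1 fusion transcript (log2 fold change -0.52, SE 0.08, edgeR adjusted p = 5e-04). Leaving out scrambled replicate 2 gave 2 higher and 1 lower with siLRWD1-6 and 0 higher and 6 lower with siLRWD1-5. The 2 higher were FLI1 (0.30, SE 0.07, edgeR adjusted p = 0.0044) and NR0B1 (0.34, SE 0.10, adjusted p = 0.013), both of which fell with siLRWD1-5 in the same fit (-0.46, adjusted p = 3.4e-05, and -0.68, adjusted p = 1.6e-05). With all libraries FLI1 was higher with siLRWD1-6 than with siLRWD1-5 by 0.74 (SE 0.08, adjusted p = 3e-05).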

How the data were processed

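The authors deposited read counts per gene symbol for 9 libraries, with no normalization. The submitters' processing notes name hg19, HTSeq 0.5.4p3, TopHat2 2.0.10 and bcl2fastq 1.8.4. Read length, strand setting, counting mode and annotation are not given in the sources used. Genes were kept with filterByExpr, scaled by TMM and fitted by edgeR 4.0.16 (R 4.3.3, limma 3.58.1) with robust quasi-likelihood, all 9 libraries and no term but the group. Genes with a Benjamini-Hochberg adjusted p under 0.05 over the 13648 genes tested were called. SE was derived from the F statistic, and 95% intervals are the log2 fold change ± 1.96 SE. Alternatives were RLE or no scaling, limma-voom, DESeq2 1.42.0, a filter of 1 CPM in 3 libraries or none, a replicate block, fits of the groups compared, libraries 1 and 3 alone, and leaving out each library. The list counts without scrambled replicate 2 were added after seeing the data. The fit was tested on simulated data.

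Members and gene lists were chosen with earlier results of these data known. Genes named were LRWD1, members past the threshold, the 3 most counted members of each class, members around the count minimum, and up to 6 list genes per comparison with the smallest p. HIST1H2BC's partner genes, HIST1H2BH, HIST1H2BG and HIST2H2BF were named after their values were seen, and further list genes with their values. Replicates are, per the labels, independent experiments. Transcript words, stem-loops and lengths came from GENCODE release 29, matched by symbol for 73 of 73 HIST rows, and promoters from RefSeq (Python 3.11.15, pandas 2.3.3).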

Additional observations from a re-analysis of the deposited data

How the results depend on the processing

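HIST1H2BD with siLRWD1-5 against scrambled and with siLRWD1-6 against siLRWD1-5, and HIST1H2BC with siLRWD1-5 against scrambled, kept their calls in 18 of 18 alternatives. After group means were removed, libraries of the same number in different groups correlated at 0.05 to 0.36, and those of different numbers at -0.32 to 0.13. Of the 9 libraries, 8 correlated best with their own number in both other groups. The main fit had no term for this number. A replicate block raised the genes called with siLRWD1-5 against scrambled from 2527 higher and 2765 lower to 2887 and 3038, and raised the calls in the other comparisons too. With the replicate block the members called stayed at 2 higher and 2 lower with siLRWD1-5 against scrambled. They stayed at 0 and 0 with siLRWD1-6 against scrambled, where 1472 and 1343 of 13648 genes were called. With siLRWD1-6 against siLRWD1-5 they stayed at 2 and 0, where 3335 and 3157 genes were called. Leaving out 1 library at a time gave fits with 11 to 13 members tested. Of these, 1 to 3 were called higher with siLRWD1-5, 0 to 2 with siLRWD1-6, and 1 to 2 with siLRWD1-6 against siLRWD1-5. Of all 13776 to 13869 genes tested, 1956 to 3326, 702 to 2115 and 2488 to 3954 were called higher in the same order. With libraries 1 and 3 alone, 1 member was called higher with siLRWD1-5, where 47.0% of all genes were called, and 1 with siLRWD1-6, where 26.0% were. With no count filter 1 member, HIST1H2BG, was called lower with siLRWD1-6 against siLRWD1-5, where 30.8% of all genes were called. That call is not read as support for a difference.

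Class sums moved by more than the spread between replicates where scrambled replicate 2 was absent. With libraries 1 and 3 alone the log2 ratio of the H2A sum was 0.39 with siLRWD1-5 and 0.42 with siLRWD1-6, and that of the H2B sum 0.40 with siLRWD1-6. Leaving out 1 library gave -0.11 to 0.38 for H2A with siLRWD1-5, -0.074 to 0.43 for H2A with siLRWD1-6 and 0.012 to 0.40 for H2B with siLRWD1-6, each highest without scrambled replicate 2.

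The following fold changes, which did not pass in the main fit, changed sign in at least 1 alternative. HIST1H2AC turned to 0.34 with siLRWD1-5 and 0.57 with siLRWD1-6 in libraries 1 and 3, and to 0.10 with siLRWD1-6 by limma-voom, and with 1 library left out it ranged from -0.56 to 0.37 and from -0.37 to 0.57, highest in both without scrambled replicate 2. HIST1H1E with siLRWD1-5 ranged from -0.77 to 0.29 with 1 library left out, above 0 without scrambled replicate 3 or siLRWD1-5 replicate 3 (0.0039). HIST1H2BK ranged in this way from -0.039 to 0.29 with siLRWD1-5 and from -0.043 to 0.30 with siLRWD1-6, below 0 without scrambled replicate 1. In siLRWD1-6 against siLRWD1-5, HIST1H2BK turned to 0.0019 with no count filter and with the 1 CPM filter, 0.053 in libraries 1 and 3, and ranged from -0.054 to 0.068 when 1 library was left out. There HIST1H2BH ranged from -0.017 to 0.41 with 1 library left out, below 0 without siLRWD1-5 replicate 3, and HIST1H3E from -0.19 to 0.13, above 0 without siLRWD1-5 replicate 2 and in libraries 1 and 3 (0.11). HIST2H2BE turned to -0.064 with no scaling, -0.0019 with the compared groups alone, and ranged from -0.16 to 0.24 when 1 library was left out. The causes were not tested.

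Depth limits the 15 untested members, with at most 15 counts in a library, and the H4 class in particular. Poly(A) capture and shared sequence limit what a count stands for. By shared words HIST1H2BK was the most affected of the tested genes. Within the coding sequence alone it shared 74.1%, and the untested HIST2H2BF 75.3%. The class sums have no test.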
